A study of Rattus norvegicus with 12 samples.

Results

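Genes of cholesterol synthesis were followed in whole lung of diabetic and normal rats. They were 6 enzymes of the pathway (Idi1, Fdps, Fdft1, Sqle, Ebp and Dhcr7) and Insig1, a regulator of the pathway, and every probe set that the platform annotation assigns to one of these genes alone was taken. This gave 9 probe sets for 7 genes, of 15923 probe sets on the array and 10411 genes with a probe set of their own. Hmgcs1, which was also proposed, was not analysed here.

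The tissue was both lungs of male Wistar rats aged 12 weeks, with 1 Affymetrix RAE 230A array per animal and no pooling. The 7 diabetic animals had been given streptozotocin, a toxin of the insulin-producing beta cells, at an age of 8 weeks and so had been diabetic for 4 weeks, and the 5 normal animals had been given buffer by intraperitoneal injection at the same age. All animals were fasted overnight before the lungs were taken, so both groups share the fasted state. Streptozotocin is a chemical model in which insulin is lost through injury to the pancreas, and direct effects of the toxin on the lung cannot be told apart from those of diabetes.

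Cholesterol is built from acetyl groups through mevalonate, which is turned into isoprene units, joined into farnesyl diphosphate and squalene, closed into a ring and trimmed to the sterol. The transcription factor SREBP-2 switches on most genes of the pathway when sterols in the endoplasmic reticulum run low, and INSIG proteins hold the factor back when sterols are abundant. In the lung, cholesterol is a component of cell membranes and of the surfactant that type II alveolar cells secrete.

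Start regions were available from RefSeq (build GRCr8) for 5 of the 7 genes, Fdps, Idi1, Dhcr7, Ebp and Insig1. Fdps and Idi1 are the synthesis genes whose signals are compared most closely in the text on covariation. Insig1 is the regulator of the pathway. The start regions of Fdps, Idi1 and Insig1 are therefore shown. Each is the 120 bases before the outermost start annotated for the gene, which for Insig1 lies upstream of the start used in the motif counts, read 5′ to 3′ on the gene's strand, with capitals marking matches to the CCAAT box, which NF-Y binds, or to the E-box CACGTG, a site that SREBP and clock factors can bind. They lie on the minus strand at chr2:176804817-176804936 (Fdps), chr17:66547525-66547644 (Idi1) and chr4:8057813-8057932 (Insig1).
Fdps: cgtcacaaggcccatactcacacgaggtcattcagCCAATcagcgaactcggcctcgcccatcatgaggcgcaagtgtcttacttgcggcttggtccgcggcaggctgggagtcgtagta
Idi1: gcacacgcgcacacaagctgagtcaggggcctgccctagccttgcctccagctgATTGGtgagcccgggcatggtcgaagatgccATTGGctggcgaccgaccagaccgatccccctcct
Insig1: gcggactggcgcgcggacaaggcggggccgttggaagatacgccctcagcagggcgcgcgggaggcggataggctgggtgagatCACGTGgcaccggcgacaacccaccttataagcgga

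Over the 250 bases before the start that RefSeq's promoter table uses, on both strands, CCAAT was found in 4 of the 5 genes (Fdps, Idi1, Ebp and Insig1) and in 34.2% of 27457 promoters of the same length. The GC box GGGCGG was found in 4 of the 5 (Fdps, Dhcr7, Ebp and Insig1) and in 32.1% of promoters, and CACGTG in Insig1 alone of the 5 and in 5.73% of promoters. A form of the sterol element with 1 free base, TCACNCCAC, was found in 0 of the 5 windows and in 0.987% of all promoters. Sterol elements with other letters were not searched for, so the count for this form does not show that the windows lack a sterol element. A match in letters is a description and says nothing of binding in these lungs.

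The first question was whether 4 weeks of diabetes changed the signal of the pathway. The values are MAS 5.0 signals, an intensity per probe set on a linear scale that the authors had scaled to the same trimmed mean of 500 on every array. They were compared as log2 signals with limma over the 9520 probe sets left after removal of the dimmest 40%, and all 9 cholesterol synthesis probe sets passed this filter. The limma count past an adjusted p of 0.05 was 0 of 9, against 0.168% of all probe sets tested (0.0945% higher with diabetes and 0.0735% lower). Without adjustment, 1 of 9 had a p under 0.05, a share near the 16.4% of all probe sets that reached it. The groups overlapped for 9 of 9, against 2.04% of all probe sets without overlap. The log2 difference (diabetic minus normal) was below 0 for 5 of 9, against 52.8% of all probe sets tested, and its median was -0.0080 over the 9 and -0.011 over all probe sets tested. The array limits each value by the number of animals, and in whole tissue a change in the number of cells of a type and a change in RNA per cell cannot be told apart.

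**Figure D1:**
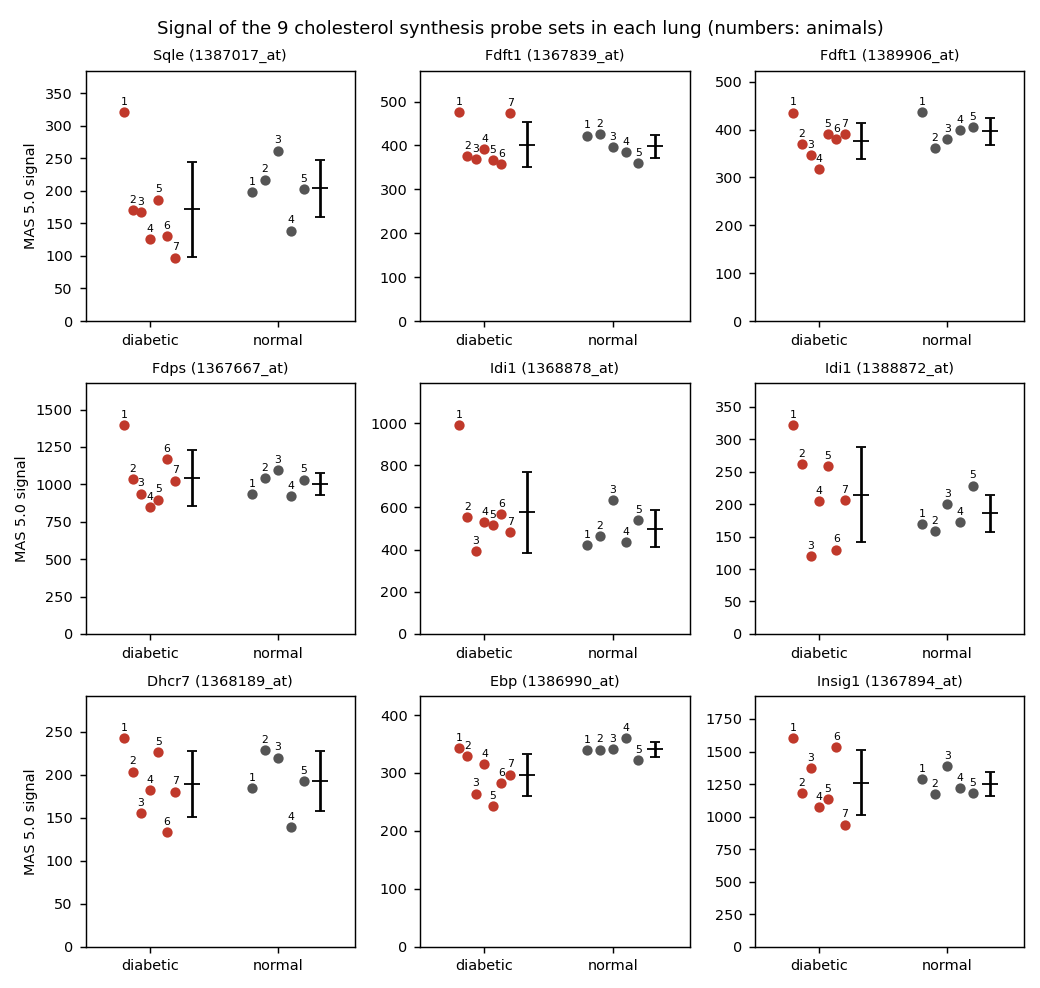
MAS 5.0 signal (linear axis from 0) of the 9 probe sets in each of 7 diabetic (red) and 5 normal (grey) lungs, with animal numbers and, beside the points, the mean and SD. The groups overlap in every panel, and diabetic animal 1 is the highest red point in each of the 9.

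The early steps make the isoprene units. Idi1 encodes isopentenyl-diphosphate isomerase, which interconverts the 5-carbon building blocks, and was measured by 2 probe sets. The brighter probe set of Idi1 had signals of 392.5 at the lowest, 532.3 at the median and 990.5 at the highest in diabetic lungs, against 420, 465.3, 633.3, 437.5 and 540.6 in normal animals 1 to 5. Only diabetic animal 1 lay above the range of the normal lungs, and diabetic animal 3 lay below it. Its mean was 577 ± 191 (SD, n = 7) in diabetic and 499 ± 87.9 (SD, n = 5) in normal lung, a log2 difference of 0.17 (SE 0.18, limma adjusted p = 0.669) with a 95% interval of 0.868- to 1.46-fold.

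The dimmer probe set of Idi1 had 119.9 at the lowest, 206.4 at the median and 321.7 at the highest in diabetic lungs, against 168.8, 158.5, 200.5, 172.4 and 228.6 in the normal lungs. Here 3 diabetic lungs lay above and 2 below the normal range. The log2 difference was 0.14 (SE 0.22, limma adjusted p = 0.789), close to that of the brighter probe set. Without diabetic animal 1 the differences were 0.03 for both probe sets.

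Fdps encodes farnesyl diphosphate synthase, whose product also feeds protein prenylation, dolichol and ubiquinone. Its signal was 846.6 at the lowest, 1024.8 at the median and 1395.3 at the highest in diabetic lungs, against 934.8, 1040.1, 1095.1, 923.9 and 1032.3 in the normal lungs. The diabetic lungs lay on both sides of the normal range, with animals 1 and 6 above it and animals 4 and 5 below it. The means were 1044 ± 188 (SD, n = 7) in diabetic and 1005 ± 73.5 (SD, n = 5) in normal lung, and the log2 difference of 0.038 (SE 0.11, limma adjusted p = 0.895) had an interval of 0.873- to 1.21-fold.

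Squalene is made by Fdft1, squalene synthase, the first enzyme committed to sterols, and is oxidised by Sqle, squalene epoxidase, one of the steps that limit the rate of the pathway. The first, brighter probe set of Fdft1 had 358.3 at the lowest, 375.5 at the median and 475.4 at the highest in diabetic lungs, against 422.3, 425, 396.7, 384.1 and 360.6 in normal lungs. Its log2 difference was 0.0072 (SE 0.096, limma adjusted p = 0.979). The 2 highest diabetic lungs, animals 1 and 7, were 475.4 and 473.7, and the other 5 were between 358.3 and 391.7. The second probe set of Fdft1 had 316.9 at the lowest, 379.9 at the median and 435.5 at the highest in diabetic lungs, against 435.9, 360.5, 379.4, 398.9 and 405.3 in normal lungs, with a log2 difference of -0.080 (SE 0.089, limma adjusted p = 0.698). The 95% intervals of Fdft1 lay close around 1, at 0.873- to 1.16-fold on the first probe set and 0.829- to 1.08-fold on the second.

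Sqle had the largest SD of the log2 signal among the 9 probe sets, 0.545 in diabetic and 0.332 in normal lung. It was also the dimmest of the 9, at percentile 40.8 of mean log2 signal, just above the filter. Dhcr7, at 42.1, and the dimmer probe set of Idi1, at 43.0, lay close to the filter too. The part of low signal in their spread was not tested. Its signal was 97.5 at the lowest, 167.5 at the median and 320.6 at the highest in diabetic lungs, against 198.2, 217.4, 261.8, 139 and 202.8 in normal lungs. Diabetic animal 1 lay above every normal lung, whereas animals 4, 6 and 7 lay below every normal lung. The means were 171 ± 72.6 (SD, n = 7) in diabetic and 204 ± 44.1 (SD, n = 5) in normal lung, the log2 difference was -0.32 (SE 0.24, limma adjusted p = 0.544), and the interval ran from 0.564- to 1.145-fold. Without diabetic animal 1 the difference was -0.48 (limma adjusted p = 0.236).

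The late steps act on the sterol ring. Ebp encodes the sterol delta8-delta7 isomerase and Dhcr7 the reductase that completes cholesterol. Ebp, the probe set with an unadjusted p under 0.05, had 242.2 at the lowest, 297.3 at the median and 342.3 at the highest in diabetic lungs, against 339.1, 340.4, 341.6, 360.2 and 322.3 in normal lungs. In 5 of 7 diabetic lungs Ebp was below the lowest normal lung, and none was above the highest. The mean was 296 ± 35.7 (SD, n = 7) in diabetic and 341 ± 13.4 (SD, n = 5) in normal lung, and the log2 difference of -0.21 (SE 0.097, unadjusted p = 0.0458, limma adjusted p = 0.296) did not pass the threshold. Its interval was 0.749- to 0.997-fold, and leaving out any 1 animal gave -0.25 to -0.16. Dhcr7 had 133.4 at the lowest, 182.1 at the median and 242.8 at the highest in diabetic lungs, against 184.5, 228.5, 220.1, 139.4 and 192.4 in normal lungs. The spread of Dhcr7 was alike in the groups, with means of 189 ± 38.4 (SD, n = 7) in diabetic and 193 ± 35.1 (SD, n = 5) in normal lung and a log2 difference of -0.033 (SE 0.16, limma adjusted p = 0.943).

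Insig1 encodes the endoplasmic reticulum protein that retains SREBP and is itself an SREBP target, so that its transcript is known as a readout of SREBP activity. It had 938.6 at the lowest, 1179.5 at the median and 1603 at the highest in diabetic lungs, against 1290.6, 1173.7, 1386.6, 1219.6 and 1180.7 in normal lungs. Diabetic animals 1 and 6 lay above every normal lung and animals 4, 5 and 7 below every normal lung. The means were 1262 ± 248 (SD, n = 7) in diabetic and 1250.2 ± 89.2 (SD, n = 5) in normal lung, the log2 difference was -0.0080 (SE 0.12, limma adjusted p = 0.981), and the interval ran from 0.832- to 1.19-fold.

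A measure of RNA integrity moved with the groups. The GAPDH ratio, the signal of its 3' control probes over that of its 5' ones, was 1.147 ± 0.0710 (SD, n = 7) in diabetic and 1.32 ± 0.0778 (SD, n = 5) in normal lung (exact two-sided permutation test, p = 0.00758), whereas that of beta-actin was 2.08 ± 0.372 and 2.06 ± 0.437 (exact permutation test, p = 0.904). With the GAPDH ratio as a covariate the log2 difference in limma became -0.60 for Dhcr7 (adjusted p = 0.111), -0.77 for Sqle (adjusted p = 0.275) and -0.46 for the dimmer probe set of Idi1 (adjusted p = 0.442), and 0 of the 9 passed. Diabetic animal 6 had a ratio of 1.30, within the normal range of 1.23 to 1.44, while the other 6 diabetic lungs were between 1.097 and 1.17, so this fit separates the ratio from diabetes through few animals. The part of RNA integrity in these values was not tested further.

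Markers of the lung's own cells were present, with 8 of 9 type II cell markers on the array and all 8 above the filter. Their summed signal, which covers the cells with the highest demand for surfactant lipid, was 77307 to 101869 in diabetic and 81211 to 97271 in normal lung. That of 7 of 7 fibroblast markers did not overlap, at 11631 to 17544 in diabetic and 19611 to 21489 in normal lung, and its part in the values above was not tested. The 7 did not move one way. The log2 difference was -1.06 for Col1a1, -0.94 for Col1a2 and -0.97 for Col3a1, the collagens that make up much of the sum. It was 0.58 for Pdgfra (limma adjusted p = 0.0552), a growth factor receptor, and 0.19 for Dcn. The groups did not overlap for Col1a1 and Col3a1, lower with diabetes, and for Pdgfra, higher, against 2.04% of all probe sets without overlap. In limma 0 of the 7 passed the adjusted threshold, and 6 of 7 had an unadjusted p under 0.05. Of these, 1 was higher and 5 were lower, against 7.75% and 8.68% of all probe sets. By the same counts 1 of 5 type I alveolar cell markers was higher (Hopx, 0.23) and 2 were lower (Aqp5, -0.52, and Ager, -0.24). Both macrophage markers tested, Cd68 and Csf1r, had a log2 difference of 0.29, and 1 of the 2 counted as higher. Of 3 lymphocyte markers 1 was lower (Cd79b, -0.82). In limma 0 of these passed the adjusted threshold, and their part was not tested.

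The rest of the pathway was read from lists of genes, 1 probe set per gene. Of 13 other cholesterol synthesis enzymes 12 were on the array and 7 passed the filter, and the limma counts were 0 past an adjusted p of 0.05 and 0 at an unadjusted p under 0.05, with a median log2 difference of 0.033. The smallest p values were those of Pmvk, phosphomevalonate kinase (0.14, SE 0.11), Lbr, a sterol reductase of the nuclear envelope (-0.12, SE 0.11), Sc5d, sterol C5 desaturase (0.10, SE 0.097), and Msmo1, the sterol methyl oxidase (-0.084, SE 0.087). These log2 differences lie on both sides of 0. Of 12 genes of the SREBP system and sterol sensing 9 were on the array and tested, with a count of 0 in limma at either threshold and a median of 0.089, which was 0.041 without diabetic animal 5, 0.045 without normal animal 4 and 0.019 over every probe set of these genes. The smallest p values were those of Mbtps2, a protease that releases SREBP (0.13, SE 0.076), Nr1h3, the sterol receptor LXR alpha (0.14, SE 0.099), Mbtps1, the other protease of SREBP (-0.089, SE 0.067), and Rnf139, a sterol-linked ubiquitin ligase (0.16, SE 0.12).

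Genes that store sterols or move them within and out of the cell were read next. Of 15 genes of sterol storage, transport and efflux 9 were tested, and none passed the adjusted threshold in limma (0 of 9). The unadjusted counts were 2 with higher and 0 with lower signal, against 7.75% and 8.68% of all probe sets. The median log2 difference was 0.045, with 4 of 9 below 0, against 52.8% of all probe sets. This median was 0.20 with no filter, -0.041 with the GAPDH ratio as a covariate and -0.097 over every tested probe set of these genes. Abcg1, an exporter of cholesterol that LXR induces, had a signal of 2609 ± 365 (SD, n = 7) in diabetic and 1990 ± 299 (SD, n = 5) in normal lung, a log2 difference of 0.39 (SE 0.11, limma adjusted p = 0.116). Osbp, an oxysterol-binding carrier, had a log2 difference of 0.24 (SE 0.081, limma adjusted p = 0.183), Soat1, which esterifies cholesterol for storage, 0.28 (SE 0.13), and Scarb1, the HDL receptor, -0.20 (SE 0.10). The other branches of the mevalonate pathway, which attach isoprenoids to proteins and cofactors, had 5 of 9 genes tested, with a count of 0 in limma at either threshold and 0 of 5 log2 differences below 0, against 52.8% of all probe sets. Their median of 0.18 became 0.083 with no filter, where Icmt (0.040) and Dhdds (-0.15) enter, or with the dimmest 60% removed, 0.060 with the GAPDH ratio and 0.11 without normal animal 3. Examples are Rce1, a protease of prenylated proteins (0.18, SE 0.087), Fntb, a farnesyltransferase subunit (0.26, SE 0.20), Pggt1b, the subunit of another prenyltransferase (0.21, SE 0.18), and Fnta, the shared alpha subunit of these transferases (0.083, SE 0.078).

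The fatty acid arm of SREBP control was read in the same way. Of 12 targets of SREBP-1 in fatty acid synthesis 9 were tested, none passed the adjusted threshold in limma (0 of 9), and the unadjusted counts were 3 with lower and 0 with higher signal, against 8.68% and 7.75% of all probe sets. The median log2 difference of -0.15 became -0.030 with the GAPDH ratio as a covariate. These were the desaturases Scd (-1.002, SE 0.28, limma adjusted p = 0.111), Fads2 (-0.46, SE 0.19) and Fads1 (-0.36, SE 0.16), and next came the elongase Elovl5 (-0.15, SE 0.077). The difference between the cholesterol and the fatty acid genes was not tested.

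**Figure D2:**
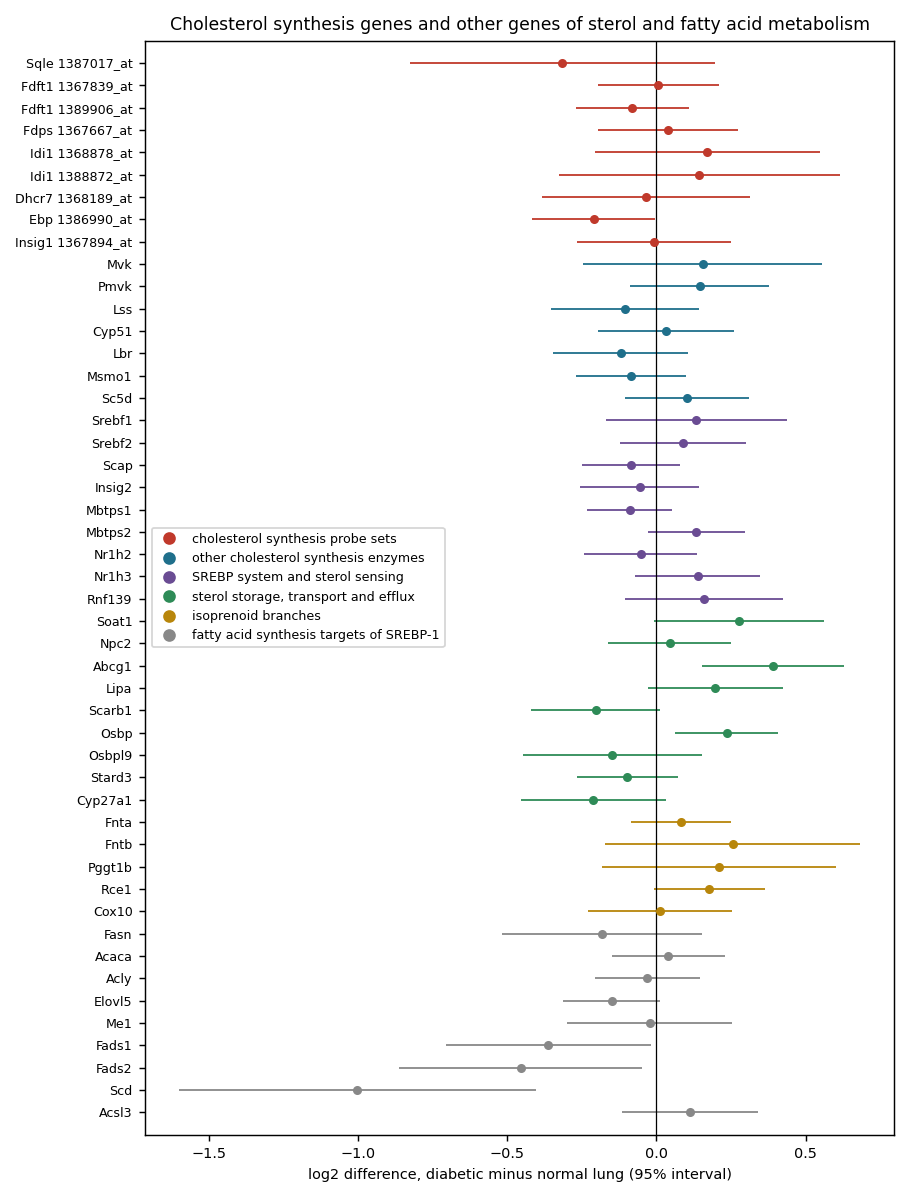
Log2 difference (diabetic minus normal lung, horizontal axis) with its 95% interval from limma for the 9 cholesterol synthesis probe sets (red) and the tested genes of the 5 lists. Among the red intervals that of Ebp alone ends below 0, at -0.0044, and Scd is the point farthest from 0, at -1.002.

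The second question was whether the genes varied together from lung to lung. The SD of the log2 signal was larger in diabetic than in normal lung for 9 of 9 probe sets, against 53.9% of all probe sets tested, with a median of 0.284 in diabetic and 0.106 in normal lung. For Insig1 the SD was 0.284 in diabetic and 0.101 in normal lung, for Ebp it was 0.178 and 0.0568, and for Fdps 0.246 and 0.106. Without diabetic animal 1 it was larger in diabetic lung for 7 of 9, against 53.7% of all probe sets, and the medians were 0.195 in the other 6 diabetic and 0.106 in the normal lungs.

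Diabetic animal 1 had the highest signal of the 7 diabetic lungs in 9 of 9 probe sets, while it was the highest in 13% of all probe sets tested. It was the highest of all 12 lungs in 7 of 9, against 5.58% of all probe sets, the exceptions being Ebp and the second probe set of Fdft1. Relative to the mean of the other 6 diabetic lungs its log2 signal was higher by 1.16 for Sqle, 0.97 and 0.77 for the probe sets of Idi1, 0.51 for Fdps, 0.45 for Dhcr7, 0.43 for Insig1, 0.30 and 0.26 for those of Fdft1, and 0.25 for Ebp. The median over the 9 was 0.45, and that over all probe sets was -0.0019 with an upper quartile of 0.13. This animal was singled out after the values were seen.

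The same reading was made for the other lists. Among the 7 other cholesterol synthesis enzymes tested, it was the highest diabetic lung for 2, named here after their values were seen, the demethylase Cyp51 with a signal of 1242 and Msmo1 with 906.5, and the median excess over the other diabetic lungs was 0.13. The medians were 0.046 for the SREBP system, 0.14 for sterol storage, transport and efflux, -0.079 for the isoprenoid branches and -0.096 for the fatty acid genes. Scd had a signal of 342.1 in this animal, and the highest of the other 6 diabetic lungs had 994.4. The array of diabetic animal 1 had a mean r of 0.961 with its own group, within the 0.952 to 0.962 of the diabetic arrays, and a GAPDH ratio of 1.11. The summed signal of its type II cell markers was 89741, inside the range of the other lungs. That of the macrophage markers on the array, 2 of 7 (Cd68 and Csf1r), was 3147, the highest of the 12, against 1850 to 2443 in the other diabetic and 1685 to 2242 in normal lungs, and its part in the pattern was not tested. The summed signal of 5 of 8 adipocyte markers, all under the filter, was also highest of the 12 in this animal, at 600.9, with 600.3 in diabetic animal 2 and 267 to 552 in the other 5 diabetic lungs, against 303 to 381 in normal lungs, and its part was not tested either. The 5 markers were not alike. Mean signals in diabetic and normal lung were 133 and 50.9 for Fabp4, but 156 and 148 for Cfd and 67.8 and 68.6 for Plin1. They were 87.1 and 69.0 for Ucp1 and 13.7 and 10.9 for Lep.

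**Figure D3:**
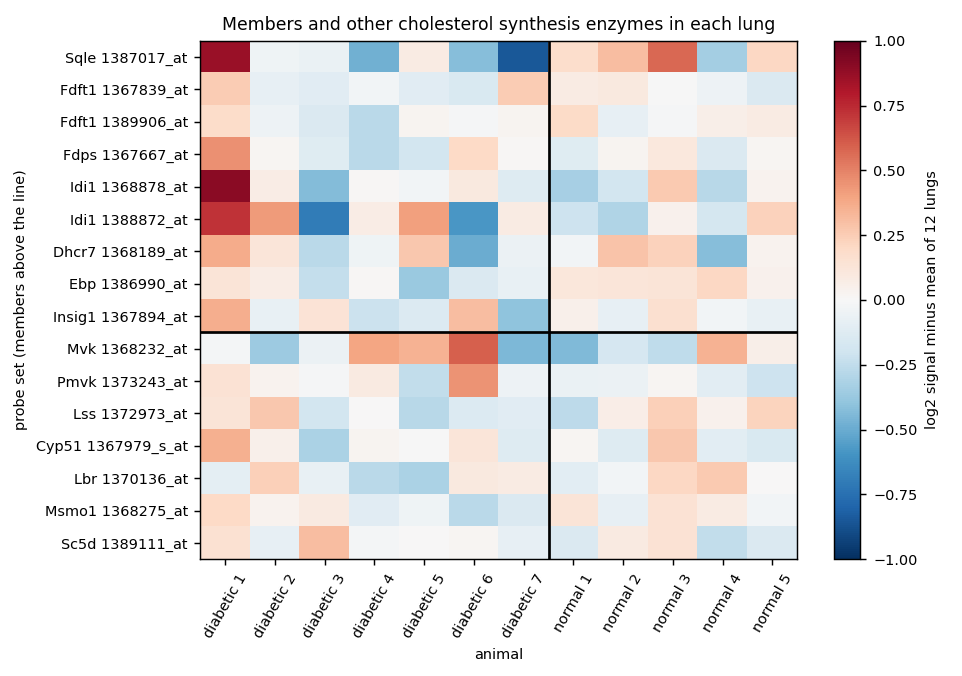
Log2 signal minus the mean of the 12 lungs (colour) for the 9 cholesterol synthesis probe sets above the line and 7 other enzymes below it, with diabetic animals left of the vertical line and normal animals right of it. The column of diabetic animal 1 is above the mean in each of the 9 rows above the line, and normal animal 3 is the highest normal lung in 4 of them.

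Correlations were computed between the 7 genes, with the brighter probe set of each, over the 12 lungs after the mean of each group was removed, so that a difference between the groups could not produce them. Over the 21 pairs the median Pearson's r was 0.43 (range -0.10 to 0.80), 19 were above 0 and 9 above 0.5, against a median of 0.00022 and 8.02% above 0.5 over all pairs of tested probe sets. By Pearson's r over the 12 lungs the closest pair was Fdps and Idi1, consecutive enzymes of the pathway (r = 0.80, permutation p = 0.00802, and Spearman's rho = 0.70, permutation p = 0.0151). Sqle and Dhcr7 followed by r but were the closest pair by rho (r = 0.70, permutation p = 0.0159, and rho = 0.80, permutation p = 0.00565), and then Sqle and Idi1 (r = 0.70, permutation p = 0.0379, and rho = 0.50, permutation p = 0.123). Adjusted over the 21 pairs (Benjamini-Hochberg, permutation tests within groups, two-sided) 0 pairs passed 0.05, and the lowest adjusted p was 0.167 for r and 0.119 for rho.

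The covariation was then computed without diabetic animal 1. Without it the median r was 0.097 (range -0.62 to 0.61), with 12 of 21 pairs above 0 and 2 above 0.5, and 0 pairs passed after adjustment over the 21. The 2 pairs above 0.5 were Sqle with Dhcr7 (r = 0.61, permutation p = 0.0618) and Fdps with Idi1 (r = 0.51, permutation p = 0.115). Without the 2 lungs farthest from the median of the first gene, r was 0.78 for Sqle with Dhcr7 and 0.69 for Fdps with Idi1 but 0.30 for Sqle with Idi1, and its median over the pairs was 0.22. The r of Insig1 over all 12 lungs was 0.64 with Fdps, 0.63 with Sqle, -0.069 with Dhcr7 and -0.10 with Fdft1. Without diabetic animal 1 these were 0.42, 0.40, -0.42 and -0.62, and without the 2 farthest lungs 0.35, 0.054, 0.29 and -0.21. The lungs left out as farthest differ between these pairs. They were diabetic animals 1 and 4 for the pair with Fdps, and diabetic animals 1 and 7 for those with Sqle and Fdft1. For the pair with Dhcr7 they were diabetic animal 6 and normal animal 4, so that diabetic animal 1 stayed in. Within the 7 diabetic lungs alone the median r was 0.51, and 0 of 21 pairs passed after adjustment (exact permutation test, lowest adjusted p = 0.435).

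**Figure D4:**
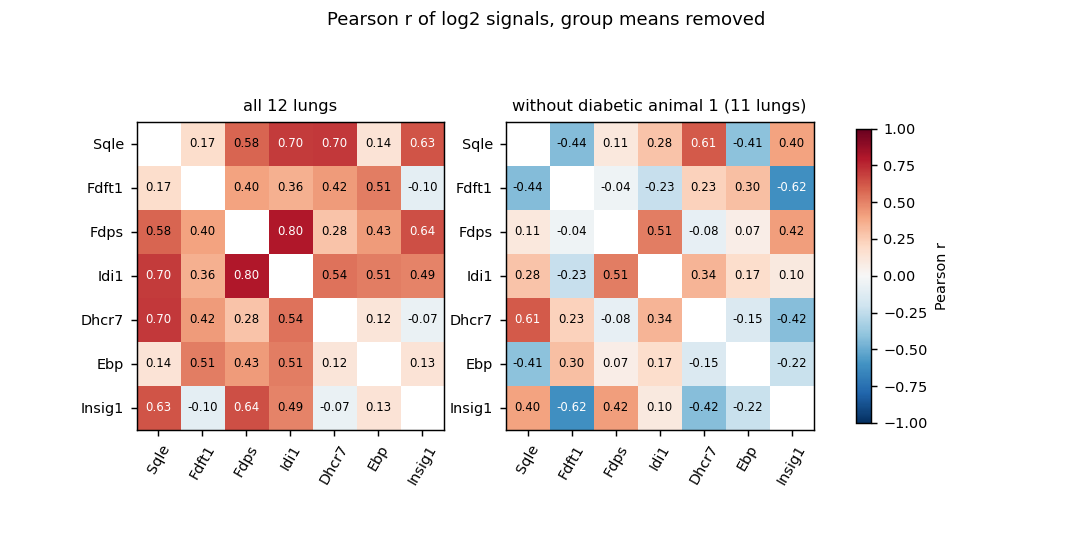
Pearson's r (colour and printed value) between the log2 signals of 7 genes after removal of group means, over all 12 lungs on the left and over the 11 lungs without diabetic animal 1 on the right. Fdps with Idi1 is at 0.80 on the left and 0.51 on the right, and 19 of 21 pairs are above 0 on the left and 12 on the right.

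Repeat readings of the same transcript give a scale for these values. The 2 probe sets of Idi1 had r = 0.67 (permutation p = 0.0267) and rho = 0.57 (permutation p = 0.0642), and r = 0.50 without diabetic animal 1 and 0.55 without the 2 farthest lungs. Those of Fdft1, a gene of narrow range, had r = 0.38 (permutation p = 0.293) and rho = 0.14 (permutation p = 0.686), and r = 0.071 without diabetic animal 1 and -0.12 without the 2 farthest lungs. The pairs Fdps with Idi1, Sqle with Dhcr7 and Sqle with Idi1 had an r above that of the probe sets of Idi1, and these differences were not tested.

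The genes whose pattern was closest to the mean of the 7 standardised genes were then listed, from all tested probe sets that name a single gene. By Pearson's r over the 12 lungs with group means removed they were Ywhaz, an adaptor protein of the 14-3-3 family (0.92), Scarb1, the HDL receptor, on a dimmer probe set than the one above (0.84), Cd68, a lysosomal protein of macrophages (0.82), Khdrbs1, an RNA-binding protein (0.81), Klhl6, a lymphoid adaptor (0.81), Dap3, a mitochondrial ribosomal protein (0.81), Ext2, which builds heparan sulfate (0.80), and Mrpl58, a mitochondrial ribosomal protein (0.79). These values are high because they were selected as the highest. Without diabetic animal 1 they were 0.90 for Ywhaz, 0.72 for Scarb1, 0.67 for Klhl6, 0.64 for Khdrbs1, 0.58 for Cd68, 0.53 for Mrpl58, 0.52 for Dap3 and -0.023 for Ext2. The signal of Cd68 was 1376 in diabetic animal 1 and 1216 in animal 2, and 633 to 744 in the other 5 diabetic lungs, against 624 to 784 in normal lungs.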

How the data were processed

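The authors hybridized lung RNA of 7 diabetic and 5 normal rats to Affymetrix RAE 230A arrays and summarised each probe set with MAS 5.0, which weighs perfect match against mismatch probes. The deposited values are intensity on a linear scale, scaled by the authors to a trimmed mean of 500 (without the lowest and highest 2%), and were taken as given. The 1 value at or below 0 was set to 0.1. Tests did not include the 57 control probe sets. Of the other 15866 probe sets, 12748 were named through Entrez IDs and 35 by the annotation's symbol, while 312 naming several genes and 2771 with no name here stayed in the test. Log2 signals were compared with limma 3.58.1 in R 4.3.3 (lmFit, eBayes with an intensity trend, two-sided, Benjamini-Hochberg) over the 9520 probe sets left after the dimmest 40% (mean signal under 170.0) were removed. BAMarray, the test of the study, and the present and absent calls were not used here.

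Correlations used 100000 permutations within groups, and all 5040 orders of the 7 diabetic lungs. RNA integrity was compared with scipy 1.17.1, and figures were drawn with matplotlib 3.10.9 in python 3.11.15. The limma and permutation steps were tested on simulated data. Alternatives were other scalings, another filter, a pseudocount of 64, a variance without trend, weighted arrays, a block for the replicate number, the GAPDH ratio as a covariate and each animal left out in turn. A list was read on the brightest probe set of each gene. The text names each cholesterol synthesis probe set, at most 4 genes per list, those of lowest p, and the 8 genes of closest pattern. Some cell type markers are named as well. The members and lists were chosen with earlier results of these data known.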

Additional observations from a re-analysis of the deposited data

Results flagged for a closer look

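In groups of 4 to 10 lungs, a lung whose gap to its nearest neighbour is large against the group's whole range (Dixon's 95% criterion) was looked for in 22 groups of values, those of the 9 probe sets and of the control ratios in diabetic and in normal lung. Chance alone gives about 1 such group in 20, and 3 were found. For Idi1, brighter probe set, the gap of diabetic animal 1, with a signal of 990.5, was 0.708 of the range of the 7 diabetic lungs. For Sqle the gap of the same animal, with a signal of 320.6, was 0.602 of the range. For the 3' to 5' ratio of GAPDH the gap of diabetic animal 6, with a ratio of 1.30, was 0.654 of the range.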

How the results depend on the processing

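Over 20 or 21 alternatives per probe set, limma called 0 of the 9 cholesterol synthesis probe sets at an adjusted p of 0.05, and the lowest adjusted p was 0.111 (Dhcr7, GAPDH ratio as a covariate). The sign held under each alternative for Sqle, Ebp and the second probe set of Fdft1. With the GAPDH ratio the log2 difference turned to -0.13 for the first probe set of Fdft1, -0.088 and -0.46 for the probe sets of Idi1 and 0.17 for Insig1. With the replicate block it was -0.011 for Fdft1, 0.071 for Dhcr7 and 0.011 for Insig1. It was -0.0028 for Fdps with array weights, 0.015 for Dhcr7 with quantile normalization and 0.019 for Insig1 with median centring. Leaving out 1 animal gave -0.035 to 0.033 for that of Fdft1, -0.034 to 0.086 for Fdps, -0.15 to 0.047 for Dhcr7 and -0.070 to 0.059 for Insig1. The cause was not tested. The count of all probe sets past the threshold, 16, was 25 with quantile normalization, 7 with no filter, 32 with the dimmest 60% removed, 9 without the trend, 80 with array weights, 193 with the GAPDH ratio, 196 at an adjusted p of 0.10 and 2 to 30 without 1 animal. The replicate block gave 11. The median log2 difference of the other cholesterol synthesis enzymes, 0.033, was -0.025 with the dimmest 60% removed and -0.023 without diabetic animal 1. Without 1 animal that of the SREBP system ran from 0.041 to 0.12 and that of sterol storage, transport and efflux from -0.0019 to 0.10. It ran from 0.11 to 0.20 for the isoprenoid branches and from -0.18 to -0.10 for the fatty acid genes. A pairing of the lungs by number was not seen. With group means removed, 0 of 5 same-numbered pairs had r over 0.1, and r ran from -0.12 to 0.038. A weak pairing could go unseen in 5 pairs. The median r over the 21 pairs of genes was 0.097 without diabetic animal 1, up to 0.527 without another animal, and 0.36 with Spearman's rho.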

Other observations

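Some genes of the pathway lay under the filter, and their log2 differences come from the same limma fit without it. Among the enzymes these were Acat2, which makes acetoacetyl-CoA (-0.20, SE 0.17), Mvd, mevalonate diphosphate decarboxylase (0.087, SE 0.56), the late sterol enzymes Nsdhl (0.096, SE 0.18) and Hsd17b7 (0.087, SE 0.22), and Tm7sf2, a sterol reductase (-0.88, SE 0.44, limma adjusted p = 0.433). The signal of Tm7sf2 was 33.7 ± 19.8 (SD, n = 7) in diabetic and 56.2 ± 21.6 (SD, n = 5) in normal lung, far below the filter.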
